A study of Homo sapiens with 4 samples.

Results

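The guanylate-binding protein genes GBP1, GBP2, GBP3, GBP4 and GBP5 were followed in H1792, an established line of human lung cancer cells whose genotype the labels give as WT. They are 5 of the 61228 gene rows in the count files and were taken by their symbols. The set was chosen by family membership with its read counts in this same ACBI1 and DMSO comparison already known, so the members' changes are given as a description and carry no test. Cells had been kept for 96 h with the solvent DMSO or with ACBI1, at a dose that the labels write as 1 mM. That unit may be an error in the labels and could not be checked here. ACBI1 is a PROTAC that brings SMARCA2, SMARCA4 and PBRM1, proteins of the SWI/SNF chromatin remodelling complexes, to the VHL ubiquitin ligase for degradation. Each group held 2 libraries of 1 cell line, made from total RNA, and the labels do not say whether the replicates came from separate cultures, so that p-values measure the spread between these libraries, which may be technical.

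Guanylate-binding proteins are large GTPases of the dynamin superfamily. Interferon-gamma is their classical inducer: its receptor signals through the kinases JAK1 and JAK2, and the transcription factor IRF1, itself an interferon target, acts on GBP promoters. The proteins assemble on bacteria and on the vacuoles that hold them, and they help the inflammasome caspases to act there. In tumour cells their transcripts are often read as a sign of interferon signalling.

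Gene counts summed to between 64281850 and 86010100 per library, and genes with at least 1 count numbered 26491 to 27778. The transcripts of the degrader's targets SMARCA2, SMARCA4 and PBRM1 had log2 changes from -0.40 to 0.70, none of which was called (edgeR quasi-likelihood test, Benjamini-Hochberg adjusted p from 0.0583 to 0.734); without DMSO replicate 1, SMARCA4 was called higher (log2 change 0.91, edgeR adjusted p 0.0281). Since ACBI1 acts on the proteins, this does not check the labels. Among markers of the labelled tissue, the lung epithelial genes were absent or rare: NKX2-1 had 0 counts in every library, and NKX2-1, SFTPC and NAPSA summed to 0.0447 to 0.250 CPM (counts per 1000000 counts, with library sizes scaled by TMM). The 6 epithelial markers, led by the keratin KRT7, summed to 982 and 1035 CPM with DMSO and to 323 and 202 CPM with ACBI1. EPCAM, another of these 6, went the other way, from 5.38 and 2.78 CPM with DMSO to 15.6 and 4.84 CPM with ACBI1, and its groups overlapped. CDH1, also of these 6, was rare, with 4 to 16 counts in a library. The 6 leukocyte markers summed to 0.268 to 0.876 CPM, with CD3E at 0 counts in all 4 libraries. The 3 endothelial markers summed to 12.6 and 48.5 CPM with DMSO and to 0.0112 and 0.0458 CPM with ACBI1, nearly all of it PECAM1. VWF had 24 and 23 counts with DMSO and 0 in both ACBI1 libraries, and CDH5 had at most 4 counts in any library. Of the 3 fibroblast markers, none was at 0, and their sum was 340 and 737 CPM with DMSO and 70.5 and 220 CPM with ACBI1. Most of it was COL1A1, at 324 and 693 CPM with DMSO and 62.3 and 210 CPM with ACBI1. The epithelial, endothelial and fibroblast sums were thus lower with ACBI1 alongside the GBP genes, and their part in the GBP results was not tested. In bulk RNA, fewer cells carrying a transcript and less of it per cell cannot be told apart.

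The promoters are shown because the members are known as interferon-inducible genes. RefSeq's promoter table (GRCh38.p14) held GBP1, GBP3 and GBP4 among the members, and GBP6 and GBP7 among their neighbours. Each sequence runs from 150 bases before the gene's start in RefSeq to base 25 of the transcript, on the gene's strand. GBP7 is shown beside the members as a relative that was barely detected here. Capitals mark matches to 3 motifs searched on both strands: the core of the interferon-stimulated response element (GAAA, any 2 bases, GAAA), the gamma-activated site TTCNNNGAA and the NF-kB consensus. The stretches lie on the minus strand at chr1:89065184-89065358 (GBP1), chr1:89022842-89023016 (GBP3), chr1:89198918-89199092 (GBP4) and chr1:89175979-89176153 (GBP7).
GBP1: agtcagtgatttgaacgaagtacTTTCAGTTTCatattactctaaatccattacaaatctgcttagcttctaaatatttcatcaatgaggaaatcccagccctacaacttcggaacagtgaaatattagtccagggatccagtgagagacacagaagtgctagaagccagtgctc
GBP3: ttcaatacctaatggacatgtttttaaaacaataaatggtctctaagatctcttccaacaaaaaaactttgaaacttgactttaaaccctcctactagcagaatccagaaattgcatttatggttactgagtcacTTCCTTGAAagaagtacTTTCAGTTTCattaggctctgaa
GBP4: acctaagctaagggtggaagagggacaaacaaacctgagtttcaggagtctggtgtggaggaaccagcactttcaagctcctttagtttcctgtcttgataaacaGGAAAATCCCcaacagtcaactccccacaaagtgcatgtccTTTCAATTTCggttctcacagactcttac
GBP7: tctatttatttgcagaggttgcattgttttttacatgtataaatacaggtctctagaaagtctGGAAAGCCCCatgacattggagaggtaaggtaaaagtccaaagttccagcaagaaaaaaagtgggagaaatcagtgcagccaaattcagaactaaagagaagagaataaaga
In the full 300-base windows, all 3 members in the table held the response element core, each on the strand opposite to the gene. It spanned bases -127 to -118 in GBP1, 3 to 12 in GBP3 and -4 to 6 in GBP4. These are counted from the RefSeq start, with no base 0. The GENCODE annotation used below starts the GBP1 gene at chr1:89065360, upstream of the whole printed stretch, which ends at chr1:89065358. By that start the GBP1 match lies inside the gene, so its place relative to the start depends on the annotation. The GENCODE starts of GBP3 (chr1:89022894) and GBP4 (chr1:89198932) lie within their printed stretches. Neither GBP6 nor GBP7 held the response element core. Over all 35116 promoters in the table, 3.57% held these letters. The gamma-activated site was matched in GBP3 alone among the 5, at bases -15 to -7, against 7.66% of all promoters. The NF-kB consensus was matched in GBP4, at bases -45 to -36, and in GBP7, at bases -87 to -78, against 11.3% of all promoters. GBP1 and GBP3 shared a run of 19 identical bases around the response element core, from -134 to -116 in GBP1 and from -5 to 14 in GBP3, so these 2 matches lie in a stretch the paralogs share. No other pair among the 5 windows shared a run of over 13 bases. A match of letters is not a measured binding site.

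GBP2, whose protein is prenylated and which restrains the protease furin together with GBP5, was the most abundant member by reads in the DMSO libraries, but not in the ACBI1 libraries. With DMSO, replicates 1 and 2 had 5239 and 6012 counts, and with ACBI1 they had 151 and 193, the order kept for all members below. In CPM this was 64.3 and 83.6 against 1.69 and 2.94, a mean of 74.0 ± 13.6 against 2.32 ± 0.889 (SD, n = 2). The higher ACBI1 library was still far below the lower DMSO library, and the fitted log2 change was -5.01 (SE 0.33), which is 32.1-fold lower.

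GBP3, a close relative of GBP1 that joins it on bacterial surfaces, had 3858 and 2152 counts with DMSO and 431 and 158 with ACBI1. These were 47.4 and 29.9 CPM against 4.81 and 2.41 CPM, with means of 38.6 ± 12.3 and 3.61 ± 1.70 (SD, n = 2). The groups did not overlap, and replicate 1 was the higher library in both. The log2 change was -3.41 (SE 0.41), or 10.6-fold lower, and it was -4.00 without ACBI1 replicate 1.

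GBP1, which binds lipopolysaccharide and starts the coat on cytosolic bacteria, had 2135 and 1352 counts with DMSO and 504 and 302 with ACBI1. In CPM the DMSO libraries were at 26.2 and 18.8 and the ACBI1 libraries at 5.63 and 4.61, with means of 22.5 ± 5.25 and 5.12 ± 0.724 (SD, n = 2). GBP1 had the smallest fitted change of the 5, a log2 change of -2.14 (SE 0.26), or 4.39-fold lower, and both groups lay clear of each other. It was the member with the highest CPM left in both ACBI1 libraries.

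GBP4, another member of the coat that activates caspase-4, had 2298 and 930 counts with DMSO and 85 and 42 with ACBI1. These corresponded to 28.2 and 12.9 CPM with DMSO and to 0.950 and 0.641 CPM with ACBI1, with means of 20.6 ± 10.8 and 0.795 ± 0.218 (SD, n = 2). The DMSO libraries differed 2.18-fold from each other, while the lower of them was still above both ACBI1 libraries. The log2 change was -4.68 (SE 0.48), or 25.7-fold lower, and it was -4.01 without DMSO replicate 1.

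GBP5, known for its role in NLRP3 inflammasome assembly and for restricting retroviral envelopes, was the least abundant member. It had 288 and 66 counts with DMSO (3.54 and 0.917 CPM) and 0 counts in both ACBI1 libraries, which allows up to 0.0335 and 0.0458 CPM there. Against a floor of 3 counts over the ACBI1 group, GBP5 was at least 119-fold lower with ACBI1. Leaving out DMSO replicate 1 gave a bound of 47.4-fold and leaving out DMSO replicate 2 one of 183-fold, while leaving out ACBI1 replicate 1 gave 50.4-fold and ACBI1 replicate 2 gave 68.9-fold. The DMSO libraries differed 3.86-fold, the widest gap between replicates among the members. GBP5 passed the filter on low counts through its DMSO libraries only, so it could not have passed without differing.

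**Figure D1:**
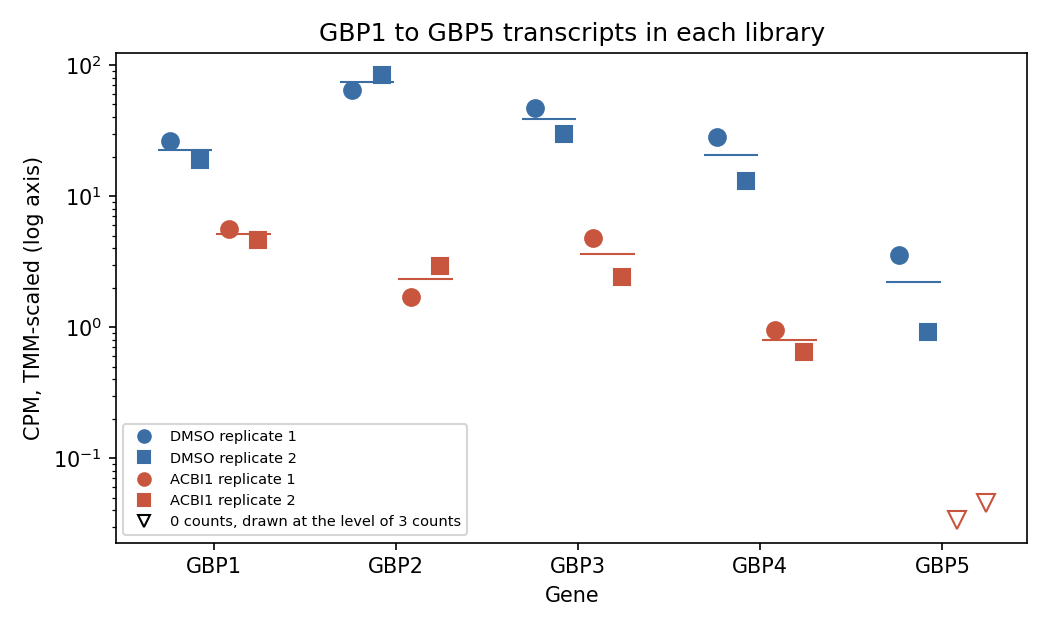
Transcript level of GBP1 to GBP5 in each of the 4 libraries, in TMM-scaled CPM on a log axis, with short lines for the mean of each group. For each of the 5 genes both ACBI1 libraries (red) lie below both DMSO libraries (blue), from 5.63 and 4.61 against 26.2 and 18.8 CPM for GBP1 to 0 counts for GBP5, drawn as open triangles at the level of 3 counts.

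All 5 members passed the filter, and all 5 were called lower in the fit across 19159 genes, where 10.6% of genes were called lower and 6.75% higher. Both ACBI1 libraries lay below both DMSO libraries for all 5, as they did for 32.2% of the genes tested. Since this contrast was in view when the members were chosen, nothing is read from these counts. The number of genes called lower in the whole table was 2037. It was smaller with a library left out, except for DMSO replicate 1, without which it was larger. The members were called lower in these fits too. Because of how they were chosen, their calls are not set against those of the whole table. In rank of fitted log2 change among the genes tested, counted from the most negative, GBP2 stood at 1.18%, GBP4 at 1.37%, GBP3 at 2.45% and GBP1 at 5.31%. GBP5 is given no rank, since its fitted change rests on 0 counts with ACBI1.

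Levels were next compared between members per length, as CPM per kb of the union of each gene's exons in GENCODE release 29. With DMSO, GBP2 stood highest at 11.8 ± 2.17 CPM per kb, followed by GBP3 at 8.99 ± 2.87, GBP1 at 4.51 ± 1.05, GBP4 at 3.36 ± 1.77 and GBP5 at 0.274 ± 0.227 (SD, n = 2). GBP2 and GBP3 changed places between libraries, with 10.3 against 11.0 CPM per kb in DMSO replicate 1 and 13.3 against 6.96 in replicate 2. GBP1 was above GBP4 in both libraries, with 5.25 against 4.61 and 3.76 against 2.11 CPM per kb, although the values of the 2 genes overlapped between libraries. GBP5 was below the other 4 members in both libraries. Among 18354 tested genes with a length, GBP2 was at the percentile 76.3 and 81.8 of level per length in the DMSO libraries and GBP5 at 25.0 and 9.77. With the longest transcript as length the order of the means was the same, but the neighbours were further apart. GBP2 was then above GBP3 in both DMSO libraries, at 17.5 against 12.9 and 22.7 against 8.13 CPM per kb, and GBP1, at 8.64 and 6.19, no longer overlapped GBP4, at 4.61 and 2.11.

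With ACBI1 the order of levels per length was another. GBP1 was at 1.03 ± 0.145 CPM per kb, GBP3 at 0.841 ± 0.396, GBP2 at 0.369 ± 0.142 and GBP4 at 0.130 ± 0.0356 (SD, n = 2), with GBP5 at 0. GBP1 and GBP3 lay within their spread of each other by this length. By the longest transcript they did not overlap, with GBP1 at 1.86 and 1.52 and GBP3 at 1.31 and 0.655 CPM per kb, and GBP2, at 0.457 and 0.798, was above GBP3 in ACBI1 replicate 2. GBP2 made up 32.5% and 50.7% of the summed level per length of the 5 genes in the DMSO libraries, and 10.1% and 22.8% in the ACBI1 libraries. The share of GBP1 was 16.6% and 14.3% with DMSO and 42.2% and 44.9% with ACBI1, and the libraries of the groups overlapped for neither gene. GBP3 had shares of 34.9% and 26.5% with DMSO and 41.9% and 27.3% with ACBI1, which overlapped. The sum over the 5 genes was 31.6 and 26.3 CPM per kb with DMSO and 2.67 and 2.06 with ACBI1.

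**Figure D2:**
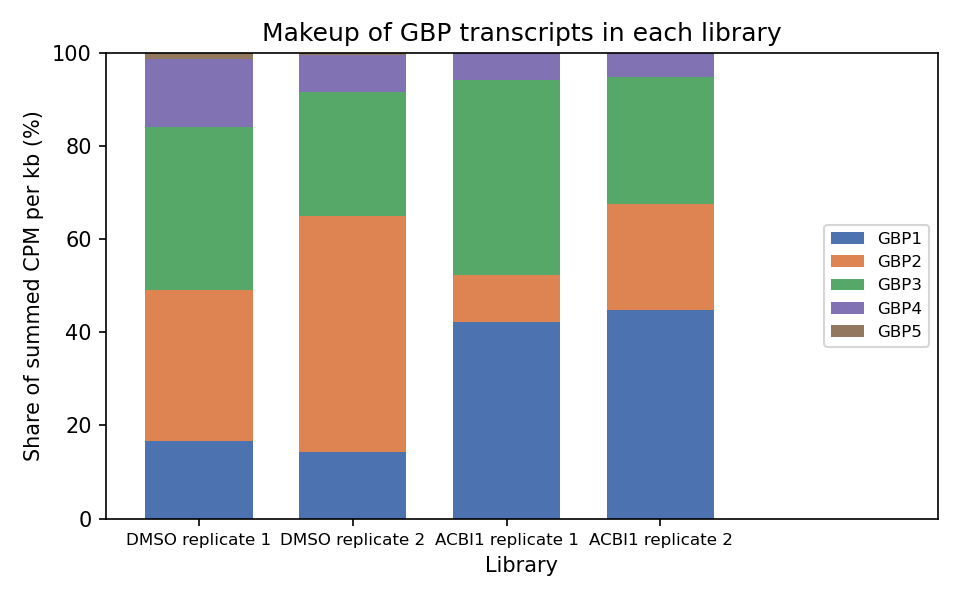
Share of each member in the summed CPM per kb of the 5 genes, in percent, for each of the 4 libraries. GBP2 (orange) holds 32.5% and 50.7% of the sum with DMSO and 10.1% and 22.8% with ACBI1, while GBP1 (blue) goes from 16.6% and 14.3% to 42.2% and 44.9%.

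Ratios of counts within a library do not depend on scaling between libraries. GBP2 had 2.45 and 4.45 counts for each GBP1 count in the DMSO libraries, and 0.300 and 0.639 in the ACBI1 libraries. For GBP4 these ratios were 1.08 and 0.688 with DMSO and 0.169 and 0.139 with ACBI1. For GBP3 they were 1.81 and 1.59 against 0.855 and 0.523. In each case both ACBI1 libraries were below both DMSO libraries, so the members differed among themselves in how far apart the groups lay. The smallest p that an exact two-sided permutation test can give with 2 against 2 libraries is 0.333, and no test was made of these ratios.

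The replicates also differed in a way that set GBP2 apart from the other members. CPM in replicate 1 divided by CPM in replicate 2 was 1.40 for GBP1, 1.58 for GBP3, 2.18 for GBP4 and 3.86 for GBP5 with DMSO, but 0.770 for GBP2. With ACBI1 it was 1.22 for GBP1, 1.998 for GBP3 and 1.48 for GBP4, and 0.573 for GBP2. Replicate 1 was therefore the higher library for GBP1, GBP3 and GBP4 in both groups and the lower for GBP2 in both. Outside the members this was not particular to GBP2: STAT2 and MX2 were also lower in replicate 1 of both groups. The share of all genes that did so was not counted.

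The 5 genes are paralogs in 1 cluster on chromosome 1, where GBP7 lies between GBP2 and GBP4, and their sequences bear on how reads were assigned. In GENCODE release 29 on GRCh38, the build named in the submitters' processing notes as hg38, the members lie on the minus strand at chr1:89006666-89022894 (GBP3), chr1:89052319-89065360 (GBP1), chr1:89106132-89150456 (GBP2), chr1:89181148-89198932 (GBP4) and chr1:89258950-89272804 (GBP5). Over the longest coding sequences, GBP1 and GBP3 were 91.6% identical, GBP1 and GBP2 82.4%, GBP2 and GBP3 82.9%, and GBP1 and GBP5 76.6%. GBP4 was further off, at 65.7% to 67.4% identity with the other 4 members, and nearest to GBP7, at 85.4%. Of all 50-base windows in the annotated transcripts, 9.62% in GBP1, 10.2% in GBP2, 4.40% in GBP3, 0.309% in GBP4 and 0% in GBP5 were also found in another gene of the family. Another gene's exons cover 9.90% of the exonic length of GBP2, all of it GBP7 on the same strand, 3.98% of that of GBP5, 2.25% of that of GBP4 and 1.54% of that of GBP3. In GBP2, 573 of 6264 windows were shared with GBP7, against 32 with GBP1, 8 with GBP3, 5 with GBP4 and 35 with GBP1P1. Most of its shared windows were thus with the gene that overlaps it, so its window share and exon overlap are not separate sources. Counts of GBP1, GBP2 and GBP3 may therefore have lost or exchanged some reads, while GBP5 shares no such window.

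The other genes of the family in the cluster were barely detected. GBP6 had 1 count in ACBI1 replicate 1 and 0 in the other libraries. GBP7, whose exons overlap those of GBP2, had 1 count in DMSO replicate 1 and 0 elsewhere. The pseudogene GBP1P1 had 25 and 8 counts with DMSO and 0 and 0 with ACBI1, at least 11.1-fold lower against a floor of 3 counts over the ACBI1 group. None of these genes passed the filter. GBP1P1 and GBP1 have 332 of these 50-base windows in common, so the pseudogene's counts are uncertain.

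The genes on either side of the cluster were compared to see whether the change went beyond the family. The 7 coding GBP genes span 380 kb (chr1:89006666-89386461), with no other coding gene inside. Of the 6 coding genes on either side in the annotation, 10 of 12 had a row in the count files and 9 could be tested; AC093155.3 and AC093423.3 had no row, and BARHL2 had 3 counts in ACBI1 replicate 1 and 0 elsewhere. The median log2 change of the 9 was -0.24, against 0.01 over all genes tested. In this group 1 gene was called lower (11.1%, against 10.6% of all genes) and 0 higher by edgeR's quasi-likelihood test. At an unadjusted p under 0.05, 1 was lower and 1 higher, as in the calls of DESeq2.

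GTF2B, which encodes the general transcription factor TFIIB, was the gene called. It was at 18.7 and 19.0 CPM with DMSO and at 10.9 and 10.8 CPM with ACBI1, a log2 change of -0.80 (SE 0.19, edgeR adjusted p 0.0358). With a library left out, GTF2B kept a log2 change of -0.81 to -0.78 but was not called (edgeR adjusted p 0.0699 to 0.163 over the 4 cases). KYAT3 and RBMXL1, the nearest neighbours beyond GBP3, had log2 changes of -0.33 (SE 0.21) and -0.24 (SE 0.28); 20.3% of the exonic length of KYAT3 overlaps RBMXL1. LRRC8B, the nearest beyond the other end of the cluster and a subunit gene of volume-regulated anion channels, had a log2 change of 0.61 (SE 0.18) that missed the threshold (edgeR adjusted p 0.0641); without DMSO replicate 1 it was 0.78 and called higher (adjusted p 0.0460). The others had log2 changes of -0.28 for LMO4, 0.03 for PKN2, 0.26 for LRRC8C, -0.22 for LRRC8D and -0.29 for ZNF326, and none of them was called.

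**Figure D3:**
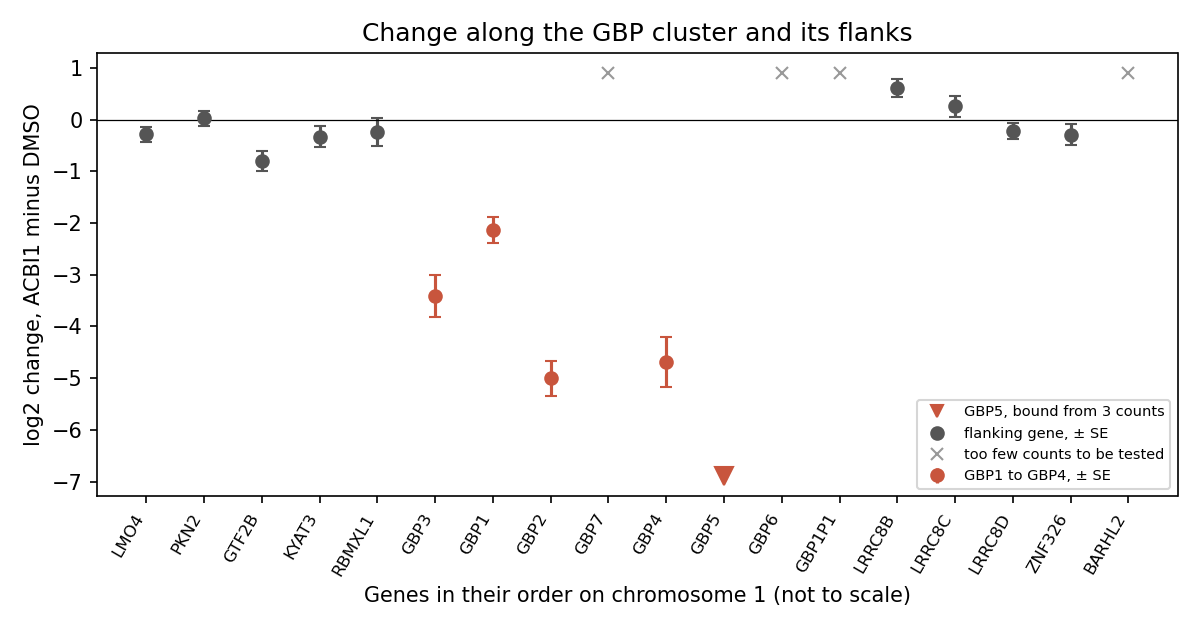
Fitted log2 change (ACBI1 minus DMSO, with SE bars) of the genes in and around the cluster, in their order on chromosome 1 but not to scale. GBP1 to GBP4 lie between -5.01 and -2.14 and GBP5 is drawn at its bound, while the flanking genes lie between -0.80 and 0.61; crosses mark genes with too few counts to be tested.

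The interferon pathway that drives GBP genes was examined through 18 genes, of which 16 could be tested. Like the members, this list and those below were chosen with earlier results of these data known. Their shares beside those of all genes are therefore given as a description. By edgeR's quasi-likelihood test 4 were called lower (25.0%, against 10.6% of all genes) and 0 higher (against 6.75%), and 12 were not called. At an unadjusted p under 0.05, 7 were lower and 2 higher, and DESeq2 called 5 lower and 1 higher. Over the 16 genes the log2 changes had a median of -0.41.

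Starting with the ligand, IFNG had 0 counts in all 4 libraries. IFNGR1, the ligand-binding chain of the interferon-gamma receptor, fell from 52.9 and 59.3 CPM with DMSO to 23.4 and 26.1 CPM with ACBI1, a log2 change of -1.18 (SE 0.16, edgeR adjusted p 0.00868). The groups were well apart, and the call held with each library left out. IFNGR2, the second chain, had a log2 change of -0.35, and the type I receptor genes IFNAR1 and IFNAR2 had -0.39 and 0.47, none of them called. The kinase genes JAK1, JAK2 and TYK2 had log2 changes of -0.44, -0.28 and 0.19 and were not called either.

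Among the transcription factors, IRF1 had the largest change. It fell from 172 and 124 CPM to 34.1 and 28.7 CPM, a log2 change of -2.23 (SE 0.22, edgeR adjusted p 0.00396). STAT2, which acts in the type I interferon complex, fell from 43.1 and 66.3 CPM to 12.3 and 19.6 CPM, a log2 change of -1.78 (SE 0.31, edgeR adjusted p 0.0164). IRF2 and IRF9 had log2 changes of -0.88 and -0.66 that were not called, and IRF8 had 2 counts in ACBI1 replicate 1 and 0 elsewhere.

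Of the feedback inhibitors, SOCS1 fell from 3.08 and 7.35 CPM to 1.02 and 0.778 CPM, a log2 change of -2.53 (SE 0.50, edgeR adjusted p 0.0230). Its DMSO libraries were far apart, and the log2 change was -1.78 without DMSO replicate 2 and -2.37, no longer called (edgeR adjusted p 0.0519), without ACBI1 replicate 2. SOCS3 was at 30.5 and 89.4 CPM with DMSO and 20.0 and 40.4 CPM with ACBI1 and was not called. PTPN2 and USP18 had log2 changes of 0.43 and 0.80 that were not called.

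A list of 15 genes, for lipid modification of proteins or for partners of GBP proteins, held 12 that could be tested. Of these 3 were called lower (25.0%, against 10.6% of all genes) and 0 higher by edgeR's quasi-likelihood test, and the median log2 change was -0.21, or -0.55 without ACBI1 replicate 1. At an unadjusted p under 0.05, 5 were lower and 0 higher, as in the calls of DESeq2. Without DMSO replicate 1 the genes called lower numbered 5. The called genes were all inflammasome genes. CASP1, which encodes caspase-1, had 501 and 234 counts with DMSO and 1 and 0 with ACBI1. The ratio of DMSO to ACBI1 was 743, with an exact 95% counting interval from 133 to 29395, and edgeR's adjusted p was 0.00265. The size of this ratio rests on the 1 count in ACBI1 replicate 1: without that library CASP1 has 0 counts left with ACBI1, and without ACBI1 replicate 2 the fitted log2 change was -8.54 against -9.20. CASP1 kept a negative log2 change with each library left out. Like GBP5, it passed the filter on low counts through its DMSO libraries only. It could not have passed without differing, so its call is a description, and the 25.0% rests in part on it. CASP4, the caspase that GBP coats recruit, fell from 137 and 94.7 CPM to 37.5 and 31.3 CPM, a log2 change of -1.75 (SE 0.23, edgeR adjusted p 0.00770). GSDMD, the pore-forming substrate of both caspases, fell from 41.6 and 42.9 CPM to 23.3 and 24.4 CPM, a log2 change of -0.83 (SE 0.15, edgeR adjusted p 0.0195). GSDMD was no longer called without ACBI1 replicate 1 (adjusted p 0.0990) or without ACBI1 replicate 2 (adjusted p 0.0661).

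The genes for prenylation, which attaches the lipid anchor of GBP1, GBP2 and GBP5, and for CaaX processing had log2 changes near 0. FNTA, FNTB, PGGT1B, RCE1, ICMT and ZMPSTE24 lay between -0.24 and 0.17, and none was called. FURIN, the protease restrained by GBP2 and GBP5, had a log2 change of -1.01 (SE 0.28) and PIM1, a kinase that phosphorylates GBP1, -1.28 (SE 0.36), and neither passed the threshold (edgeR adjusted p 0.0546 and 0.0583). SFN was rare, with 2 to 33 counts in a library, and CASP5, AIM2 and NLRP3 were below the filter.

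Other GTPases of the dynamin superfamily made up a list of 19 genes, of which 17 could be tested. Here 3 were called lower (17.6%, against 10.6% of all genes) and 1 higher (5.88%, against 6.75%) by edgeR's quasi-likelihood test. At an unadjusted p under 0.05, 5 were lower and 2 higher, and DESeq2 called 5 lower and 1 higher. The median log2 change was 0.04, and -0.11 without ACBI1 replicate 2. Both interferon-induced members were among the falls. MX2, an antiviral GTPase, fell from 5.99 and 9.15 CPM to 0.168 and 0.244 CPM, a log2 change of -5.21 (SE 0.43, edgeR adjusted p 0.00257). MX1, its relative with activity against influenza viruses, fell from 15.5 and 15.8 CPM to 6.59 and 5.40 CPM, a log2 change of -1.38 (SE 0.23, edgeR adjusted p 0.0136), and was not called without ACBI1 replicate 2 (adjusted p 0.0533).

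EHD1, which works in endosome recycling, had a log2 change of -0.85 (edgeR adjusted p 0.0356), and DNM3, a dynamin of membrane fission, rose with a log2 change of 1.44 (edgeR adjusted p 0.0385). EHD1 was not called without DMSO replicate 1, ACBI1 replicate 1 or ACBI1 replicate 2 (adjusted p 0.0754, 0.130 and 0.0887), nor was DNM3 without DMSO replicate 1 or ACBI1 replicate 2 (adjusted p 0.0566 and 0.147). The atlastins ATL1, ATL2 and ATL3, the nearest relatives of GBP proteins outside the family, had log2 changes of 0.57, -0.15 and 0.41, and the mitochondrial GTPase genes OPA1, MFN1, MFN2 and DNM1L had 0.28, 0.04, 0.36 and 0.33, none of them called. DNM1 and EHD2 had log2 changes of -1.06 and -1.20, larger falls than that of EHD1, but were not called (edgeR adjusted p 0.0620 and 0.0990). Both ACBI1 libraries lay below both DMSO libraries for each. DNM2, EHD3, EHD4 and IRGQ had log2 changes of -0.30, 0.46, 0.04 and -0.47 and were not called. The immunity-related GTPase gene IRGM had 1 to 9 counts in a library, and IRGC had 0 in all 4.

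**Figure D4:**
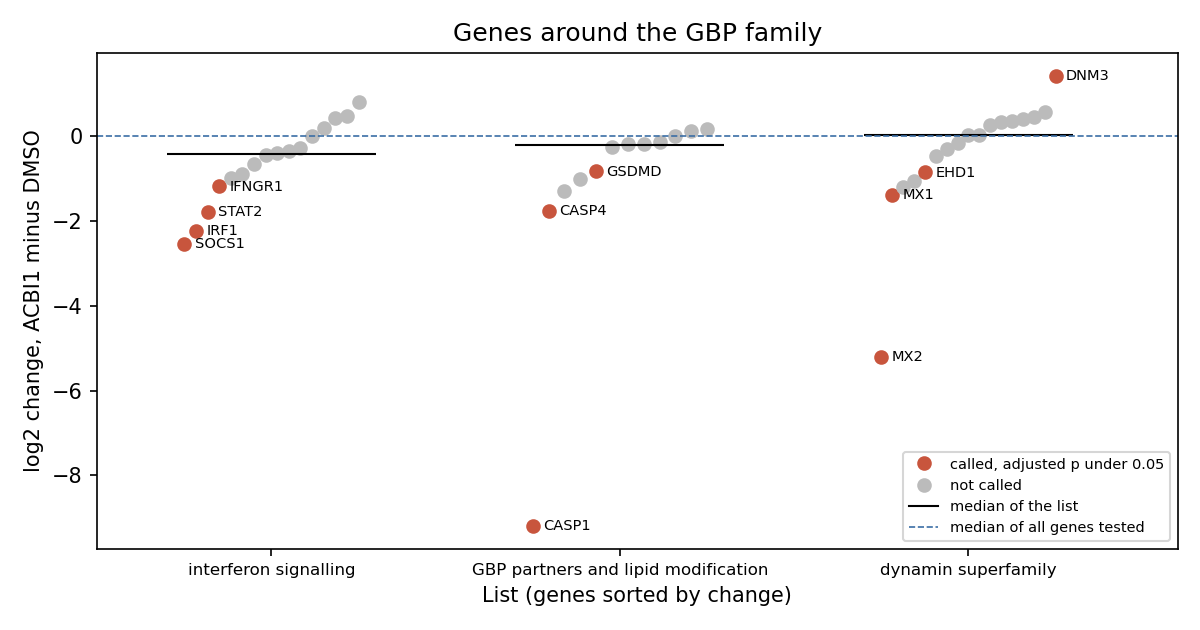
Fitted log2 change (ACBI1 minus DMSO) of each tested gene in the 3 lists, sorted within a list, with red for genes called at an adjusted p under 0.05. The lists hold 4, 3 and 3 genes called lower, among them SOCS1 at -2.53, CASP1 at -9.20 (a fitted value that rests on 1 ACBI1 count) and MX2 at -5.21, and 1 called higher, DNM3 at 1.44; black lines show the list medians of -0.41, -0.21 and 0.04.

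Other genes were ranked by how closely their profile over the 4 libraries followed that of each member. The measure was the root-mean-square distance between log2 CPM values centred on their mean, over the 11156 other genes whose mean reached 5 CPM, so that a gene's overall level played no part. With 2 groups of 2 libraries the distance rests largely on the size of the difference between the groups. Nearest to GBP1 were CLCF1 (distance 0.03), a cytokine gene of the IL-6 family, and IRF1 (0.05), against a median distance of 1.10 over all genes compared. Nearest to GBP2 were BTBD19 (0.08) and TMPRSS2 (0.13), a surface protease gene, against a median of 2.55. TMPRSS2 was at 19.9 and 28.0 CPM with DMSO and 0.424 and 0.808 CPM with ACBI1, higher in replicate 2 of both groups as GBP2 was. Its choice by this distance over the same 4 libraries largely sets that likeness.

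Nearest to GBP3 were ABCA1 (0.11), which encodes a cholesterol exporter, and GREM1 (0.12), an inhibitor of BMP ligands. GBP4 had no neighbour as close, with KLHDC7B at 0.26 and TNFRSF14 at 0.27. Nearest to GBP5 were IL6 and TNFSF18, but the log2 CPM of GBP5 with ACBI1 is set by the small count added to 0 before taking the log, so its distances are not measured values. IL6 was at 316 and 134 CPM with DMSO and at 2.33 and 1.69 CPM with ACBI1. Among GBP1 to GBP4, GBP3 and GBP4 were the nearest pair, at a distance of 0.60, followed by GBP1 and GBP3 at 0.72, and GBP1 and GBP2 were the furthest apart, at 1.53.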

How the data were processed

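RNA-seq of H1792 cells gave 4 count files, deposited by the authors as raw whole-number counts per gene symbol and not normalized, with 5 closing lines for unassigned reads. Per the submitters' processing notes TopHat2 2.1.1, HTSeq 0.11.0 and the build hg38 were used; the annotation and strand setting are not given in the sources used here, so reads of overlapping or antisense genes can be misassigned. Gene counts were 84.6% to 86.1% of all reads listed, and the closing lines entered neither library sizes nor tests.

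Groups and replicate numbers came from the titles. Genes passing edgeR's filterByExpr (minimum count 10, minimum total 15) numbered 19159. After TMM scaling, edgeR 4.0.16 (R 4.3.3) was fitted (quasi-likelihood test, two-sided, treatment alone), with Benjamini-Hochberg adjustment over all of them and calls at an adjusted p under 0.05. The common biological coefficient of variation was 0.244. SEs were obtained from the log2 change and the F statistic. Replicates differed by more than sampling noise (chi-square per degree of freedom 158 between the DMSO and 102 between the ACBI1 libraries). For a count of 0, 3 counts give the limit; such limits and intervals hold for counting error alone, because duplicates from PCR were not marked.

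Alternatives were other scalings and filters, DESeq2 1.42.0, a threshold of 0.01, the replicate number as a block and each library left out. The members and lists were chosen with earlier results of these data known. Named are the members, the other GBP genes of the cluster, every flanking gene, at most 4 called genes of a list with the largest change, IRF1, JAK2 and IFNGR1, the 2 genes most alike in profile to each member, the degrader's targets and, by their values, further genes of each list, which were added after seeing the data. A result on a single gene that this rule would bring in is not reported here. Scripts were tested on simulated counts. Lengths and coordinates are from GENCODE release 29 and promoters from RefSeq (GRCh38.p14).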

Additional observations from a re-analysis of the deposited data

How the results depend on the processing

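The 5 members kept a negative log2 change under every alternative in which they were tested. All 5 were called lower in each except with a minimum mean of 5 CPM, which left GBP5 untested and 4 called, and at a threshold of 0.01, which GBP5 missed (edgeR adjusted p 0.0135) and the other 4 passed. Their log2 changes, with a library left out, ranged from -2.36 to -1.88 for GBP1, -5.46 to -4.65 for GBP2, -4.00 to -3.01 for GBP3 and -5.14 to -4.01 for GBP4. With 1 library in a group, that library is assumed to vary like those of the other group.

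Over all genes, 3331 were called, against 5518 without the filter, 783 at a threshold of 0.01 and 1682 to 3799 with a library left out (1682 without ACBI1 replicate 1, 2126 without ACBI1 replicate 2). Of the interferon signalling genes 4 were called, and 2 at 0.01 (3 to 6 with a library left out). Of the GBP partner genes 3 were called, but 6 without the filter, 5 with DESeq2 and 2 to 5 with a library left out. Without the filter the median of that list was -0.84, and that of the dynamin superfamily -0.07. Of the dynamin superfamily 4 were called, and 1 at 0.01 (3 to 4 with a library left out). Of the flanking genes 1 was called, 2 under scaling by library size only, without the filter and with DESeq2, where LRRC8B was added as higher, and 0 at 0.01. The 1 called in the main fit, GTF2B, was not called with any library left out. SMARCA4 was called higher under scaling by library size only, with either other filter, with DESeq2 and with the replicate block, and SMARCA2 was called lower with the replicate block (edgeR adjusted p 0.0394, log2 change -0.40).

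With the replicate number as a replicate block, 7909 genes were called over all genes, 12 of the interferon signalling genes (3 higher, 9 lower), 5 of the GBP partner genes, 10 of the dynamin superfamily (4 higher, 6 lower) and 2 flanking genes, and the members' log2 changes were -2.13, -5.03, -3.46 and -4.64 for GBP1 to GBP4, with GBP5 at 0 counts with ACBI1 in any fit. Same-numbered libraries deviated together from their group means (r = 0.442 across 19159 genes, which are not independent replicates), but the labels do not say that a number marks a shared batch. Depth limits GBP5, GBP6, GBP7 and GBP1P1, where few or no reads were counted with ACBI1.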
